A study of Mus musculus with 7 samples.

Results

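Growth differentiation factors (GDFs), bone morphogenetic proteins (BMPs), activins and follistatins were examined in RNA-seq of C2C12 myotubes with and without electrical pulse stimulation (EPS). The group consisted of 10 genes, taken by their exact symbols from the 26607 genes listed for every library. They are the ligands Gdf6, Gdf5, Bmp4, Inhba, Gdf11, Mstn and Gdf15, the secreted inhibitors Fst and Fstl3, and the protease Bmp1. The genes were put together with their EPS and control values already known, so their differences, and where these pass a threshold, describe this comparison and are not a test of these genes. All 10 were above 0 in at least 1 library, and 9 had a mean of at least 1 CPM (a gene's reads scaled to the total reads assigned to genes in the library) over the 7 libraries.

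C2C12 is an established mouse myoblast line whose cells fuse into multinucleated myotubes in low serum. Cells of both groups had differentiated for 3 days in 2% serum, and EPS was a pulse train at 1 Hz lasting 24 h, with 1 h of rest before collection. Control cells had no stimulation. Libraries were numbered 1, 3 and 4 in the control group and 1 to 4 in the EPS group. The labels do not say whether these were separate cultures, so the spread between libraries may be partly technical. The SDs below measure that spread. The SEs are limma values drawn towards a trend over all genes, so the SE of a single gene can differ from its own spread.

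Ligands of the TGF-beta superfamily are secreted as dimers and signal through pairs of type I and type II receptors to SMAD transcription factors. BMPs and GDF5-type ligands act mainly through SMAD1, SMAD5 and SMAD9, whereas activins, GDF11 and myostatin act mainly through SMAD2 and SMAD3 and restrain muscle growth. Follistatin and follistatin-like 3 bind activins and myostatin outside the cell and block them, and BMP1-type proteases cleave procollagen and the propeptides or inhibitors of several ligands. GDF15 is a distant relative that is induced by cellular stress and acts through a receptor of the brainstem.

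Reads assigned to genes totalled 16616917 to 22120641 in the control libraries and 18830229 to 21892568 in the EPS libraries. The floor used here, 3 reads, corresponded to 0.136 to 0.181 CPM and covers counting error only. Control replicate 4 stood apart from the others. It had 359 genes with 1 to 5 reads, whereas the other 6 libraries had at least 2670, so values near 0 in that library are less certain. Each gene was fitted as log2(CPM + 1) with limma over the 19144 genes above 0. A gene past 2-fold with an unadjusted P under 0.01 was counted as called, and adjusted p values are Benjamini-Hochberg values over all 19144 genes. Adding 1 CPM makes the fold changes of low genes look smaller than they are. The shares of all genes below include genes averaging under 1 CPM, so they are no matched background for lists of higher genes. Fitted alone, the 12256 genes averaging at least 1 CPM gave 310 calls. In bulk RNA, fewer cells of a type and less RNA per cell cannot be told apart. All 14 myotube markers examined had a mean of at least 1 CPM, with summed levels of 14245 to 17971 CPM in the control libraries and 11424 to 15964 CPM in the EPS libraries. Their log2 differences were below 0 in 11 of the 14, with a median of -0.41. In limma 0 were called, against 1.41% of all genes, and 2 had an unadjusted P under 0.05. No share of all genes under 0.05 was taken, so counts at that P have no background here or below. Of the 14, edgeR called 1 with or without TMM and DESeq2 called 2. Over all genes, edgeR called 629 with TMM and 631 without it, and DESeq2 called 585. The part of the myotube markers in the differences of the 10 genes was not tested.

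Of the 10 genes, 3 were past both thresholds of the call, against 1.41% of all genes tested. Gdf6 and Fst were lower in the EPS group, a direction called in 0.439% of all genes, and Gdf15 was higher, a direction called in 0.966%. These were also the only genes of the 10 whose EPS and control libraries did not overlap, a property of 10.6% of all genes tested (EPS lower in 2.85%, EPS higher in 7.76%). In limma, Gdf6 had an adjusted p under 0.05, as did 0.141% of all genes, whereas Gdf15 and Fst did not. In edgeR with TMM and in DESeq2 all 3 had one, as did 1.51% and 3.39% of all genes given an adjusted p there. Because the genes were chosen from this comparison, nothing is read from these shares. The other 7 genes overlapped between groups. The median log2 fold change was -0.09 over the 10 genes and 0.04 over all 19144. Among genes with a mean of at least 1 CPM, the median was 0.10 on the deposited scale and -0.0048 after median-of-ratios scaling, so values here lie about 0.1 above those of a median-centred scale.

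**Figure D1:**
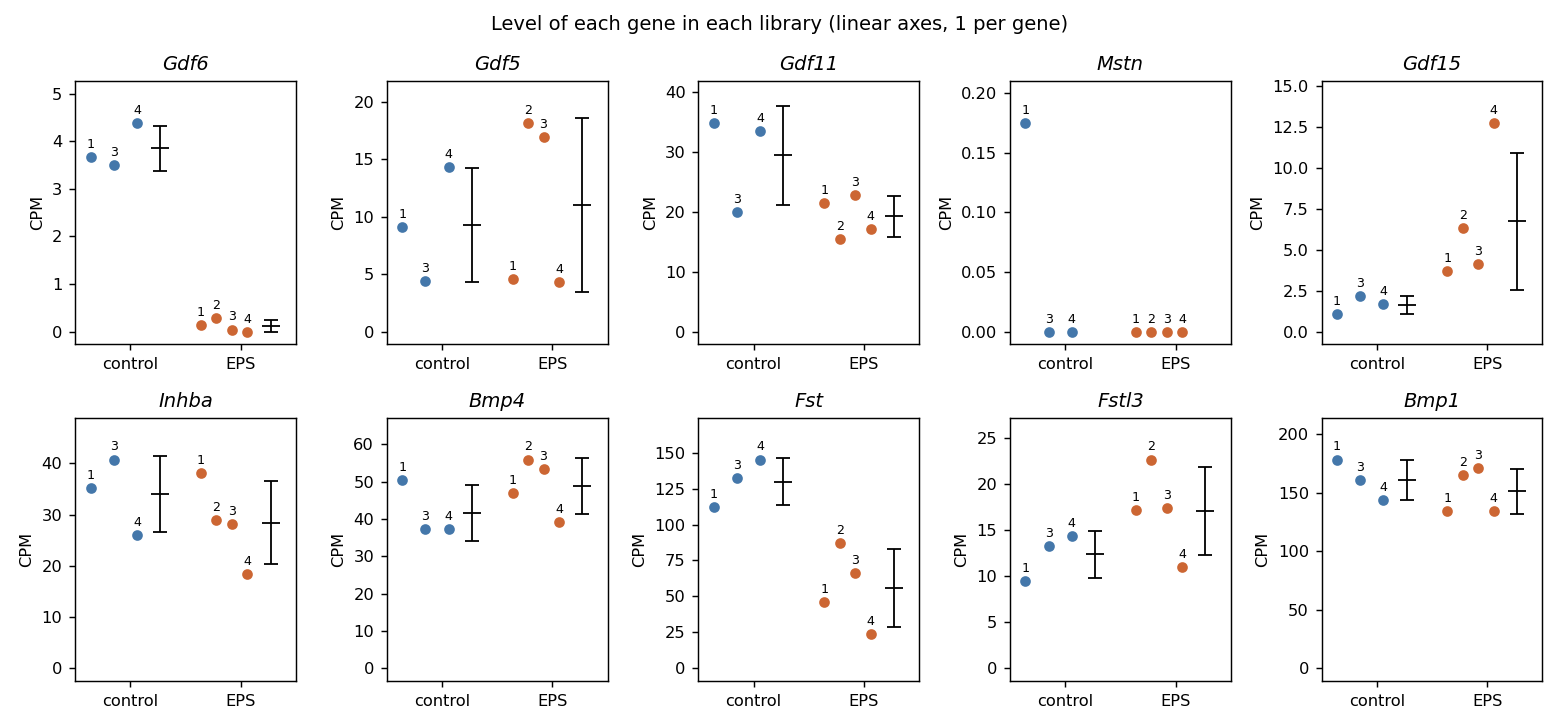
CPM of each of the 10 genes in each library (points, numbered by replicate, control in blue and EPS in orange), with the group mean and SD as black bars (control n = 3, EPS n = 4, no bar for Mstn). All EPS points of Gdf6 and Fst lie below the control points, those of Gdf15 lie above, and the groups overlap for the other 7 genes.

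Gdf6 (ENSMUSG00000051279.2, GRCm38 chr4:9844372-9862345, plus strand) encodes a BMP-type ligand known for its part in joint and skeletal patterning. It was at 3.67, 3.49 and 4.39 CPM in control replicates 1, 3 and 4, from 63, 58 and 97 reads. In EPS replicates 1 to 4 it was at 0.140, 0.292, 0.0457 and 0 CPM, from 3, 6, 1 and 0 reads. The highest EPS library, with 6 reads, lay far below the lowest control library, with 58. The mean was 3.85 ± 0.473 CPM (SD, n = 3) without and 0.119 ± 0.129 CPM (SD, n = 4) with EPS. Summed over libraries, 218 control reads and 10 EPS reads gave a level 32.3-fold higher in the control group, with an exact 95% interval of 17.2 to 68.2 that covers counting error only. As 6 of the 10 EPS reads were in EPS replicate 2, the ratio was 60.7 without that library (23.4 to 225), a value added after the reads were seen. That was the highest ratio with a single library left out. The lowest was 24.9 (13.3 to 52.7), without EPS replicate 4.

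On the log2(CPM + 1) scale the Gdf6 difference was -2.12 (SE 0.15). Leaving out each library in turn moved it between -2.19 and -2.04, and it was called in all 7 of those fits. Its limma adjusted p was under 0.05 in 6 of them. The size of the log2 change depended on the pseudocount, since 3 of the 4 EPS libraries held 3 reads or fewer. It was -4.35 with a pseudocount of 0.1 CPM, -5.04 in edgeR and -5.12 in DESeq2. Without control replicate 4 it was -2.04.

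Gdf5 (ENSMUSG00000038259.4, chr2:155941023-155945367, minus strand) encodes the closest relative of GDF6 among the 10 genes, a ligand of joint and cartilage development that also maintains muscle mass after denervation. It was at 9.09, 4.39 and 14.3 CPM in control replicates 1, 3 and 4. In EPS replicates 1 to 4 it was at 4.56, 18.2, 16.9 and 4.35 CPM. EPS replicates 2 and 3 lay above every control library, whereas EPS replicates 1 and 4 lay near the lowest. The means were 9.27 ± 4.97 CPM (SD, n = 3) and 11.0 ± 7.58 CPM (SD, n = 4), so that the SD was 53.6% and 68.9% of the mean. The log2 difference was 0.10 (SE 0.57), and it ranged from -0.31 to 0.45 as single libraries were left out. It was -0.0059 after median-of-ratios scaling. Of the 9 genes other than Mstn, which has no direction without control replicate 1, Gdf5 alone turned direction in a leave-one-out fit. The annotation puts a gene of the opposite strand, Gm15557, over its exons, and whether reads were counted by strand is not given in the sources used here.

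Bmp4 (ENSMUSG00000021835.15, chr14:46383520-46390669, minus strand), a classical BMP that keeps muscle progenitors from differentiating, was at 50.4, 37.4 and 37.3 CPM in the control libraries. The EPS libraries 1 to 4 were at 47.0, 56.0, 53.5 and 39.3 CPM. Control replicate 1 lay above EPS replicates 1 and 4, and the other 2 control libraries lay below all EPS libraries. The log2 difference was 0.23 (SE 0.18), with a leave-one-out range of 0.16 to 0.37, and the gene was not called. Its exons overlap Gm15217 on the opposite strand. Among the BMP-type ligands, Gdf6 was therefore near the read floor with EPS while Gdf5 and Bmp4 were at 4.35 CPM or more in every library.

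Inhba (ENSMUSG00000041324.14, chr13:16011851-16031621, plus strand) encodes the subunit of activin A. It was at 35.3, 40.7 and 25.9 CPM in the control libraries and at 38.1, 29.0, 28.2 and 18.3 CPM in EPS libraries 1 to 4. The groups overlapped, with the lowest value in EPS replicate 4. The log2 difference was -0.27 (SE 0.26), and it lay between -0.45 and -0.08 in the leave-one-out fits.

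Gdf11 (ENSMUSG00000025352.6, chr10:128882295-128891718, minus strand) encodes the closest relative of myostatin, which patterns the axial skeleton. The control libraries were at 34.8, 19.9 and 33.5 CPM and the EPS libraries at 21.4, 15.4, 22.8 and 17.2 CPM. Control replicate 3 lay among the EPS libraries, and the other 2 control libraries lay above all of them. The log2 difference was -0.57 (SE 0.24), from -0.82 to -0.43 with single libraries left out, and Gdf11 was not called.

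Mstn (ENSMUSG00000026100.6, chr1:53061640-53068079, plus strand) encodes myostatin, the muscle-derived ligand that limits muscle mass. It had 3 reads in control replicate 1, or 0.175 CPM, and 0 in each of the other 6 libraries. No library exceeded the floor of 3 reads, so no fold change is given and a difference was not detectable at this depth. The 14 myotube markers were present in the same libraries. The Mstn promoter is shown as that of the muscle-derived ligand, with its E-boxes marked. These are the 6-base sites (CANNTG, the same letters on both strands) bound by the myogenic factors MyoD and myogenin. The window of 250 bases before the start (chr1:53061390-53061639, plus strand, RefSeq on GRCm38.p6) held 4 E-boxes, given in capitals. At least 1 was in 66.2% of all 32851 RefSeq windows of this length, and the share with 4 was not taken.
Mstn: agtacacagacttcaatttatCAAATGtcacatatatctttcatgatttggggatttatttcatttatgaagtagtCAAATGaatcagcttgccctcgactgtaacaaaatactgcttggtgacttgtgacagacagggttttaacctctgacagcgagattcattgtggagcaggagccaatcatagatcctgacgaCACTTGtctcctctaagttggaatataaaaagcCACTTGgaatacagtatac

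Gdf15 (ENSMUSG00000038508.7, chr8:70629393-70632456, minus strand) encodes the stress-induced cytokine of the family. It was at 1.05, 2.17 and 1.67 CPM in control replicates 1, 3 and 4, from 18, 36 and 37 reads. EPS replicates 1 to 4 were at 3.72, 6.33, 4.11 and 12.7 CPM, from 80, 130, 90 and 240 reads. Every EPS library lay above every control library, and EPS replicate 4 was the highest of all. The means of 1.63 ± 0.560 CPM (SD, n = 3) and 6.73 ± 4.17 CPM (SD, n = 4) differed 4.13-fold, or 2.90-fold without EPS replicate 4. On the log2(CPM + 1) scale the difference was 1.44 (SE 0.39) and ranged from 1.12 to 1.63 as libraries were left out. It was called in 4 of these 7 fits. The call was lost without control replicate 1 (1.27), without control replicate 4 (1.46) and without EPS replicate 2 (1.42). Without EPS replicate 4 it was still called, at 1.12. The outer of its 2 RefSeq promoter windows (chr8:70632457-70632706, minus strand, GRCm38.p6) is shown because it lies wholly outside the annotated gene. It held no E-box.
Gdf15: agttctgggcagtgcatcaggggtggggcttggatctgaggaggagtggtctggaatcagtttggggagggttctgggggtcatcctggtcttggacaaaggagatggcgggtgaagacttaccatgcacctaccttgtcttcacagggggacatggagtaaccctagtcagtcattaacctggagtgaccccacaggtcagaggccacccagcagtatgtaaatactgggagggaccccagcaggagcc

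The letters of 3 other sites were also searched on both strands of the upstream windows. The AP-1 site TGANTCA was in 6.75% of all windows, the cyclic AMP response element TGACGTCA in 1.55%, and TGATGNAA, the site shared by ATF4 and CHOP, in 3.45%. None of them was in either Gdf15 window, and the inner one held 3 E-boxes. Of the 10 genes, 6 were in the promoter table. Fstl3 and Bmp4 had 3 E-boxes each, Gdf11 had 1 and Inhba had 0, while Mstn alone had an AP-1 site. A match describes the letters of the window only.

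Because GDF15 is a known product of the integrated stress response, 10 stress-response genes were read beside it. Of these, 1 was called, or 10% against 1.41% of all genes, in the direction opposite to Gdf15. Chac1, a glutathione-degrading enzyme induced through ATF4, averaged 33.1 ± 14.4 CPM (SD, n = 3) without and 13.6 ± 3.92 CPM (SD, n = 4) with EPS, which is a log2 difference of -1.17 (SE 0.32, limma adjusted p 0.198). That call held in 2 of the 7 leave-one-out fits, those without control replicate 1 (-1.48) and without EPS replicate 2 (-1.34), and was lost without control replicate 3 (-1.18) or 4 (-0.86) and without EPS replicate 1 (-1.10), 3 (-1.06) or 4 (-1.19). Of the 10, 6 had a log2 difference below 0 and 4 above 0, and the groups did not overlap in 4, or 40% against 10.6% of all genes, with EPS lower in 3 and higher in 1. The summed level was 1816 to 3228 CPM in the control libraries and 1443 to 1733 CPM in the EPS libraries, most of it from Cdkn1a, a cell cycle inhibitor induced by p53, at 1352 to 2642 CPM and 1001 to 1358 CPM. Atf3, a stress-induced transcription factor looked at after its values were seen, was at 39.7 CPM in EPS replicate 4 and at 2.74 to 3.65 CPM in the other EPS libraries, so the library with the most Gdf15 also had the most Atf3. The part of these genes in the Gdf15 difference was not tested.

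Fst (ENSMUSG00000021765.9, chr13:114452290-114458951, minus strand) encodes follistatin, the main secreted inhibitor of activins and myostatin in muscle. It was at 112, 132 and 145 CPM in control replicates 1, 3 and 4 and at 45.9, 87.1, 66.1 and 23.6 CPM in EPS replicates 1 to 4. All EPS libraries lay below all control libraries, but they differed among themselves 3.69-fold, from EPS replicate 4 to EPS replicate 2. The means were 130 ± 16.6 CPM (SD, n = 3) and 55.7 ± 27.2 CPM (SD, n = 4), 2.33-fold lower with EPS, or 1.96-fold lower without EPS replicate 4. The log2 difference of -1.35 (SE 0.38) was called over all 7 libraries but in only 2 of the 7 leave-one-out fits. It was not called without control replicate 1 (-1.45), 3 (-1.33) or 4 (-1.26), nor without EPS replicate 1 (-1.31) or 4 (-0.996). The direction was the same in all of them. The annotation places Gm47040 on the opposite strand over exons of Fst.

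Fstl3 (ENSMUSG00000020325.10, chr10:79777272-79782630, plus strand) encodes another antagonist of activins and myostatin. It was at 9.50, 13.3 and 14.4 CPM in the control libraries and at 17.2, 22.7, 17.4 and 11.0 CPM in EPS libraries 1 to 4. EPS replicates 1 to 3 were above every control library, and EPS replicate 4 was within their range. The log2 difference was 0.41 (SE 0.27), with a leave-one-out range of 0.24 to 0.59, and the gene was not called. Its exons overlap Prss57 on the opposite strand.

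Bmp1 (ENSMUSG00000022098.10, chr14:70474558-70520234, minus strand), the procollagen C-proteinase, was at 178, 161 and 144 CPM in the control libraries and at 135, 165, 171 and 135 CPM in the EPS libraries. The values of both groups covered nearly the same range. The log2 difference was -0.09 (SE 0.16), between -0.17 and -0.02 with libraries left out.

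**Figure D2:**
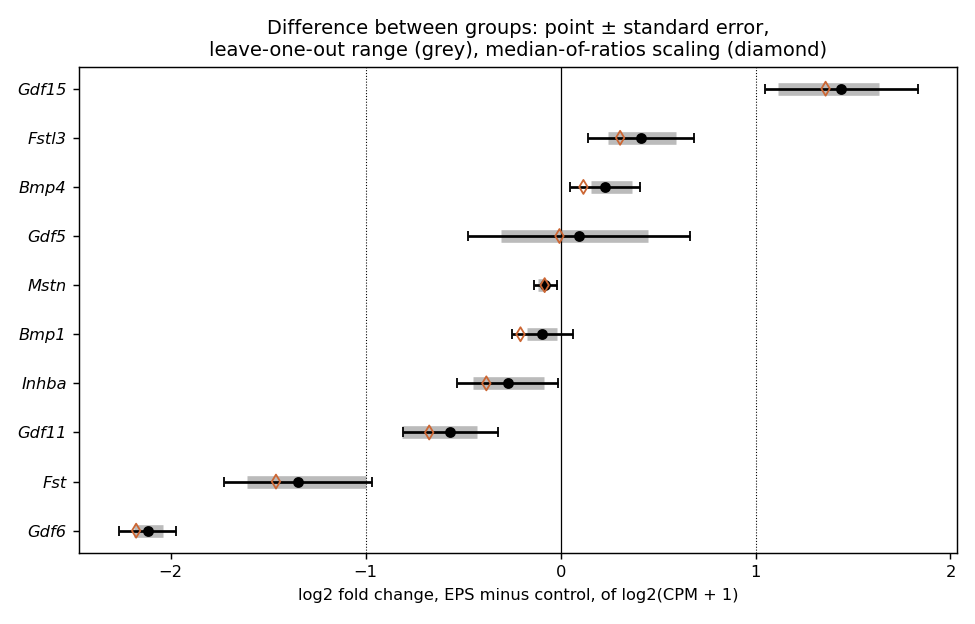
Difference between EPS and control on the log2(CPM + 1) scale for each gene (black points, bars are the standard error), with the range over fits that leave out 1 library (grey) and the value after median-of-ratios scaling (diamonds); dotted lines mark 2-fold. Gdf6 at -2.12, Fst at -1.35 and Gdf15 at 1.44 lie past 2-fold, and the grey range of Gdf5 crosses 0.

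Levels of the 10 genes were ordered after division by the length of the exons, in CPM per kb. In the control group the order was Fst (28.3 ± 3.62 CPM per kb), Bmp4 (18.5 ± 3.34), Bmp1 (18.2 ± 1.95), Gdf11 (7.24 ± 2.03), Inhba (5.32 ± 1.17), Fstl3 (5.07 ± 1.05), Gdf5 (4.0 ± 2.14), Gdf6 (1.09 ± 0.134), Gdf15 (0.880 ± 0.302) and Mstn (0.022). Follistatin RNA was thus the most abundant of the 10 per kb of exon and by that length lay above all others in each control library. Bmp4 and Bmp1 overlapped, as did each neighbour from Gdf11 to Gdf5, and Gdf6 and Gdf15. The place of Bmp1 depended on the length used. Per kb of its longest coding transcript it was at 43.7 instead of 18.2, and Fst then was at 45.8. By this second length Fst lay below Bmp1 in control replicate 1.

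In the EPS group the order per kb was Bmp4 (21.8 ± 3.32), Bmp1 (17.1 ± 2.19), Fst (12.1 ± 5.93), Fstl3 (6.99 ± 1.95), Gdf5 (4.75 ± 3.27), Gdf11 (4.73 ± 0.856), Inhba (4.44 ± 1.26), Gdf15 (3.63 ± 2.25), Gdf6 (0.034 ± 0.037) and Mstn (0). Each of the first 7 overlapped with the next. Fst, the highest in the control group, came after Bmp4 and Bmp1 in the EPS group, and Gdf15 and Gdf6 changed places. Per kb of the longest coding transcript, Bmp1 came first with EPS, at 41.1, against 23.7 for Bmp4 and 19.7 for Fst.

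The 2 follistatin genes were also compared within each library, which removes the library total from the value. The ratio of Fst to Fstl3, each in CPM per kb, was 6.29, 5.29 and 5.36 in control replicates 1, 3 and 4, compared with 1.43, 2.04, 2.02 and 1.14 in the EPS libraries 1 to 4. The groups did not overlap, with means of 5.65 ± 0.558 (SD, n = 3) and 1.66 ± 0.449 (SD, n = 4). The ratio of Fst to Inhba was 4.43, 4.51 and 7.79 in the control libraries and 1.68, 4.18, 3.26 and 1.79 in the EPS libraries. It too was lower in each EPS library, although EPS replicate 2 lay close to control replicate 1. The ratios of Fstl3 to Inhba (1.00 ± 0.396 and 1.60 ± 0.355) and of Fst to Gdf11 (4.19 ± 1.54 and 2.67 ± 1.64) overlapped between groups. These ratios use the values that chose the genes and carry no test.

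**Figure D3:**
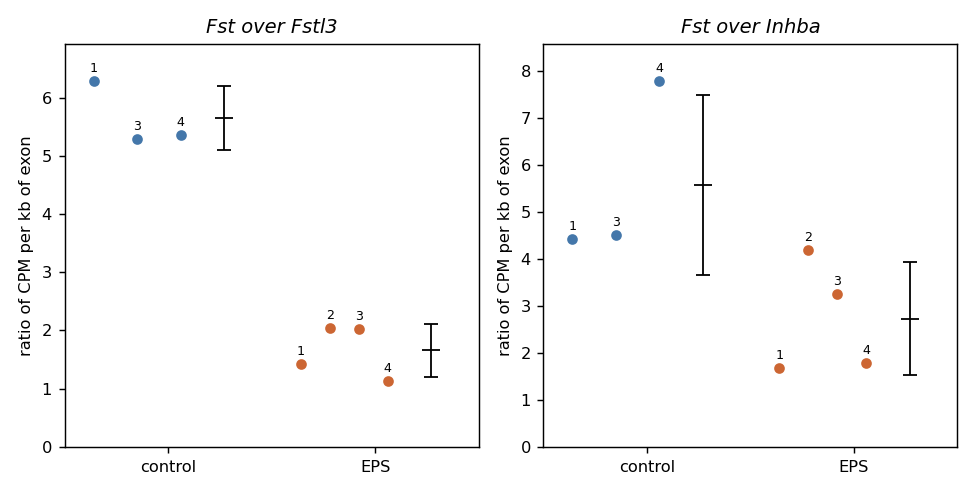
Ratio of Fst to Fstl3 (left) and of Fst to Inhba (right) in each library, from CPM per kb of exon (points, numbered by replicate, with group mean and SD in black; control n = 3, EPS n = 4). The Fst to Fstl3 ratio lay between 5.29 and 6.29 in the control libraries and between 1.14 and 2.04 in the EPS libraries.

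The spread of Fst and Gdf5 within groups was set beside markers of the cells in the dish. The summed level of 10 proliferation genes, such as Mki67 and Ccnb1, was 449, 517 and 407 CPM in control replicates 1, 3 and 4, compared with 1015, 557, 641 and 1459 CPM in the EPS libraries 1 to 4. In limma 0 of the 10 were called, and 0 had an unadjusted P under 0.01. All 10 had a log2 fold change above 0. Of them, 8 had an unadjusted P under 0.05, for which no share of all genes is given. With single libraries left out, 3 to 7 had that P, 3 of them without control replicate 4 or EPS replicate 1 and 4 without control replicate 1 or EPS replicate 4, and 0 to 3 were called, 3 without EPS replicate 2 and 2 without control replicate 3 or EPS replicate 3. With a pseudocount of 0.1 CPM 3 were called. On the recovered reads, edgeR called 4 with TMM and 7 without it, and DESeq2 called 3. Of all 19144 genes, limma called 1.41%, and 4.17% had an unadjusted P under 0.01. It called 209 to 325 genes with single libraries left out and 601 with a pseudocount of 0.1 CPM. Over all genes, edgeR called 629 with TMM and 631 without it, and DESeq2 called 585. Within the EPS group, the order of Fst (EPS replicate 2, then 3, 1 and 4) was the reverse of the order of this sum, and the same was true of Gdf5, Bmp4 and Fstl3. Of these 4 genes, Gdf5 alone was also ordered opposite to the sum in the control group. This was noticed after the values were seen, it rests on 4 and 3 libraries, and the part of proliferating cells in these values was not tested.

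**Figure D4:**
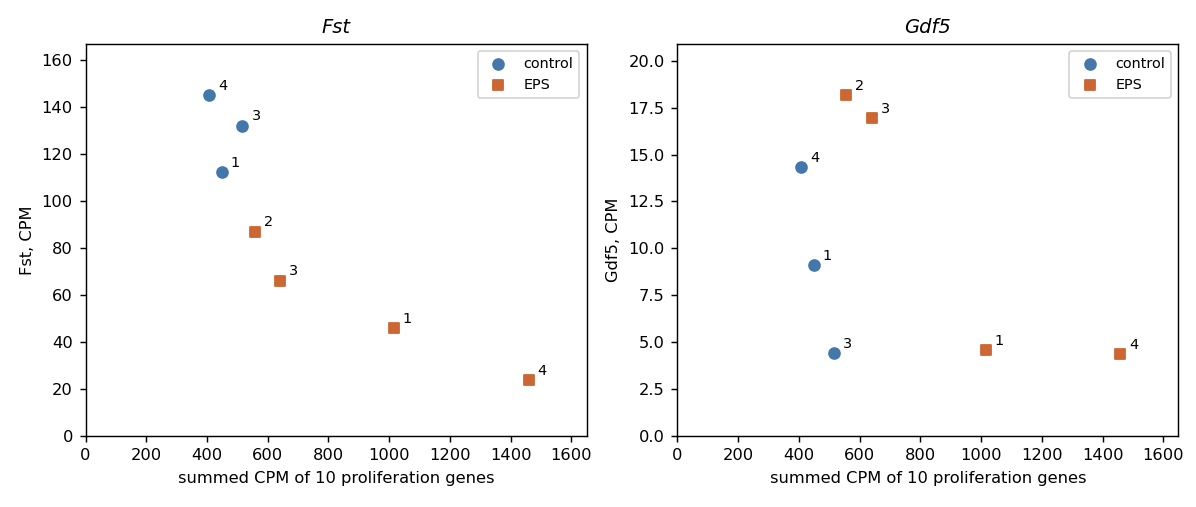
CPM of Fst (left) and Gdf5 (right) against the summed CPM of 10 proliferation genes in each library (control as blue circles, EPS as orange squares, numbered by replicate). Fst was at 87.1 CPM where the sum was 557 and at 23.6 CPM where it was 1459; for Gdf5 the EPS libraries with sums of 557 and 641 were at 18.2 and 16.9 CPM.

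Markers of unfused myoblasts (Pax7, Myf5, Myod1, Cdh15, Sdc4, Vcam1 and Des) were read in the same way. Whether their RNA came from unfused cells only was not tested. Their summed level was 3573 to 6900 CPM in the control libraries and 2955 to 4242 CPM in the EPS libraries, which overlapped. Of 7 such genes 1 was called, or 14.3% against 1.41% of all genes. Of these 7, 6 had a log2 difference below 0, and in 3 the EPS libraries lay wholly below the control libraries, or 42.9% against 2.85% of all genes. Vcam1, an adhesion molecule of myoblasts, fell from a mean of 100 ± 15.7 CPM (SD, n = 3) to one of 43.7 ± 11.8 CPM (SD, n = 4), a log2 change of -1.21 (SE 0.23, limma adjusted p 0.091), and was called in all 7 leave-one-out fits. Markers of blood or vessel cells summed to 0.933 to 2.40 CPM in the control libraries and 1.12 to 2.18 CPM in the EPS libraries. Markers of tendon or fibroblasts summed to 625 to 1053 CPM and 368 to 608 CPM, so that this sum, like Fst and Gdf6, was lower in every EPS library. Of its members, Postn, the matrix protein periostin, was at 452, 886 and 320 CPM in the control libraries. It was at 375, 344, 241 and 196 CPM in the EPS libraries, which overlapped with the control libraries. Pdgfra, a growth factor receptor of fibroblasts, was higher in every EPS library. It was the 1 of 6 such markers without overlap, or 16.7% against 10.6% of all genes. The sum of 8 cartilage or bone markers was 38.1 to 70.3 CPM and 43.2 to 67.8 CPM, most of it from Sox9. Of the cartilage or bone markers, cells in which Gdf5 and Gdf6 are best known, Sox9 was at 48.7 ± 16.4 CPM and 53.7 ± 11.2 CPM, while Acan and Col2a1 were at or under 0.117 CPM in every library and Ibsp was at 0. Of the 7 such markers tested, 1 did not overlap between groups, or 14.3% against 10.6% of all genes, and 0 were called. That gene was Dmp1, a bone matrix protein. It was at 1.45 to 2.68 CPM in the control libraries and 0.779 to 1.37 CPM in the EPS libraries. The part of these cell types in the 10 genes was not tested.

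The rest of the pathway was read from a list of 107 other genes of the superfamily, grouped by role. All were listed in the files, 96 were above 0 in at least 1 library, and 66 had a mean of at least 1 CPM. In limma, 2 were called, both lower with EPS, or 2.08% against 1.41% of all genes. At an unadjusted P under 0.01 alone there were 6, with 3 in each direction, or 6.25% against 4.17%. None had an adjusted p under 0.05 in limma with 1 CPM added, as 0.141% of all genes did, and 13 had an unadjusted P under 0.05. With a pseudocount of 0.1 CPM in limma, 1 had such an adjusted p, namely Ctgf (limma adjusted p 0.031). On the recovered reads, edgeR with TMM put 3 of the 96 under an adjusted p of 0.05, and 1.51% of all genes. DESeq2 put 4 there, and 3.39% of the 14676 genes to which it gave an adjusted p. The calls by role below stand beside 1.41% of all genes in limma. Over all genes, edgeR called 629 with TMM and 631 without it, and DESeq2 called 585. The median log2 fold change of the 96 was 0.01. In each role the gene with the highest mean CPM over the 7 libraries is also given, a choice that takes no account of gene length and gives no order of abundance.

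Of 20 other ligands, 1 was called in limma, or 5% against 1.41% of all genes. Tgfb3, a TGF-beta isoform, was at 370, 269 and 377 CPM in the control libraries and at 179, 137, 201 and 136 CPM in EPS libraries 1 to 4. All EPS libraries were below all control libraries. It fell from a mean of 339 ± 60.4 CPM (SD, n = 3) to one of 163 ± 32.3 CPM (SD, n = 4), a log2 change of -1.05 (SE 0.21, limma adjusted p 0.096). Because this is close to 2-fold, the call was lost without control replicate 1 (-0.98) or 4 (-0.97) and without EPS replicate 2 (-0.98) or 4 (-0.97). Bmp6, a ligand known for iron control, was lower in each EPS library, at 29, 20 and 21 reads in the control group and 4, 14, 12 and 6 in the EPS group (log2 -0.67, SE 0.16, limma adjusted p 0.151), and was under 2-fold on this scale. At these few reads the log2 change was -1.65 in edgeR with TMM, not called, and -1.68 in DESeq2, called. Inhbb, the subunit of activin B, had a mean over the 7 libraries of 240.2 CPM, next to 239 CPM for Tgfb3, which was higher in each control library. Inhbb was at 165 ± 41.4 CPM and 297 ± 97.9 CPM (log2 0.81, SE 0.30, limma adjusted p 0.333), with overlapping groups, and was called without EPS replicate 1 (1.03).

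**Figure D5:**
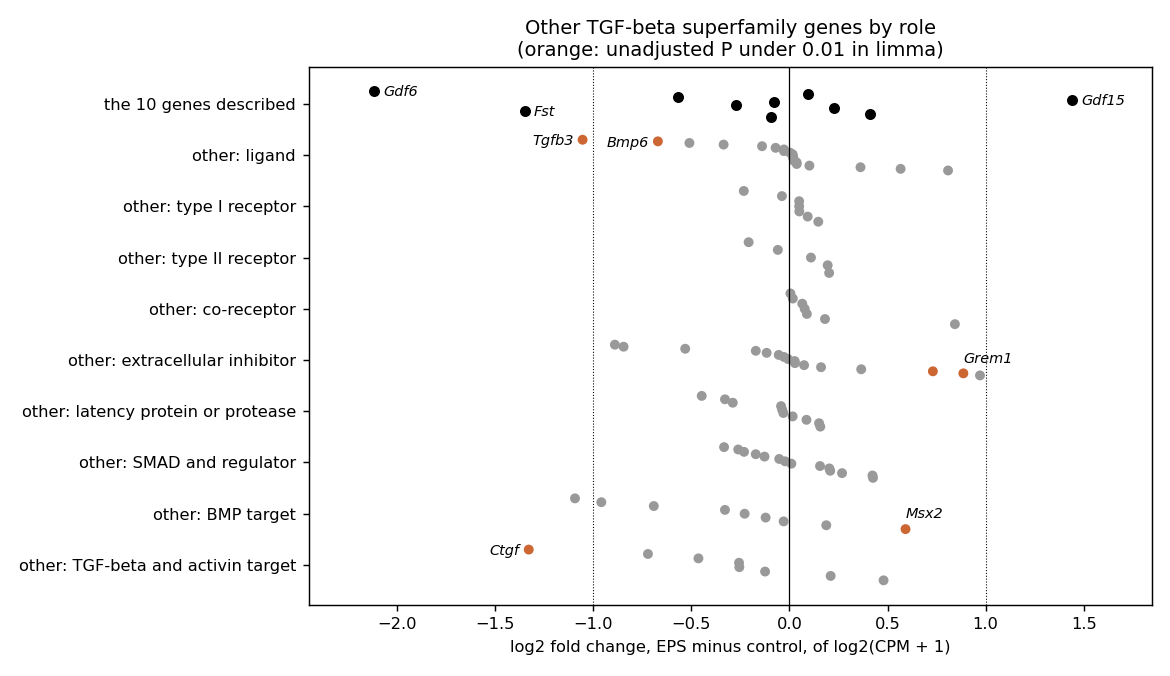
Difference between EPS and control on the log2(CPM + 1) scale for the 10 genes (top, black) and for the 96 other tested genes of the superfamily by role; orange points have an unadjusted P under 0.01 in limma and dotted lines mark 2-fold. Tgfb3 at -1.05 and Ctgf at -1.33 are the only other genes with that P past 2-fold.

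The receptors showed no called gene. Of 19 type I, type II and co-receptors tested, 0 were called in limma and 1 had an unadjusted P under 0.05, and edgeR with TMM and DESeq2 likewise called 0, while edgeR without TMM called 1. The receptors with the highest mean CPM were Bmpr1a (201 ± 33.9 and 212 ± 8.69 CPM), Tgfbr2 (419 ± 78.5 and 478 ± 46.7 CPM) and Hfe2, the BMP co-receptor hemojuvelin (187 ± 24.1 and 200 ± 43.3 CPM). Their log2 differences were 0.09, 0.20 and 0.08, with SE of 0.16, 0.20 and 0.20, and the first and the last were below 0 after median-of-ratios scaling. The brainstem GDF15 receptor gene Gfral had 0 CPM in 6 of the 7 libraries and 0.0487 CPM, under the floor, in EPS replicate 2.

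Among 16 other extracellular inhibitors, 0 were called in limma, edgeR with TMM or DESeq2, 1 was called in edgeR without TMM, and 3 had an unadjusted P under 0.05 in limma. With single libraries left out, limma called 1 without control replicate 1, 2 without EPS replicate 1 and 2 without EPS replicate 2. Grem1, gremlin, which binds BMP4, was at 178, 120 and 129 CPM in the control libraries and at 180, 294, 372 and 232 CPM in EPS libraries 1 to 4. All EPS libraries were above the control libraries, EPS replicate 1 only just, and the log2 difference was 0.89 (SE 0.26, limma adjusted p 0.231). It was called without control replicate 1 (1.06) and without EPS replicate 1 (1.06). Fstl1, a follistatin-like glycoprotein, had the highest mean CPM of the inhibitors, with 807 ± 108 CPM and 745 ± 95 CPM (log2 -0.12, SE 0.22).

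Genes of processing and of the SMAD pathway were read next. None of the 10 latency proteins and proteases was called in limma, edgeR or DESeq2, and in limma 0 had an unadjusted P under 0.05. Pcolce, the enhancer of BMP1's procollagen cleavage, was at 389 ± 57.3 CPM and 414 ± 56.4 CPM. None of the 14 SMADs and regulators was called in any of the 3 tools, and 1 had an unadjusted P under 0.05 in limma. Their groups did not overlap in 5 of the 14, or 35.7% against 10.6% of all genes, with 3 higher and 2 lower in the EPS libraries. All 14 averaged at least 1 CPM, and no share without overlap is given for such genes alone. Ski, a SMAD co-repressor, had the highest mean CPM, at 225 ± 27.4 CPM and 226 ± 15.9 CPM.

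Targets of the ligands were read last. Of 9 BMP targets 0 were called in limma, 3 had an unadjusted P under 0.05 and 1 had one under 0.01. Without EPS replicate 2, 1 was called. With a pseudocount of 0.1 CPM limma called 2, Id1 (log2 -1.15) and Msx2 (2.06), and 601 of all genes. Msx2, a homeobox gene induced by BMPs, had 1, 5 and 0 reads in the control libraries and 15, 11, 15 and 15 in the EPS libraries (log2 0.59, SE 0.11, limma adjusted p 0.082). At these few reads the log2 change was 2.44 in edgeR with TMM, not called, and 2.48 in DESeq2, called. Runx2, a skeletal transcription factor, had the highest mean CPM of them, not divided by length, at 62.8 ± 21.0 CPM and 68.8 ± 6.47 CPM, and its log2 difference of 0.19 became -0.12 without control replicate 4. In edgeR with TMM, 3 of the BMP targets were called, each lower with EPS, namely Id1 (log2 -1.39), Id3 (-1.07) and Msx1 (-1.40), which are named after their values were seen. Of the BMP targets, edgeR without TMM called Id1 alone and DESeq2 called 4, those 3 and Msx2. Over all genes, edgeR called 629 with TMM and 631 without it, and DESeq2 called 585. Msx1, a homeobox gene, was at 1.87, 2.47 and 9.86 CPM in the control libraries and at 1.78 to 2.14 CPM in the EPS libraries, and its limma difference of -0.69 was -0.097 without control replicate 4. Id1, an inhibitor of myogenic factors, was at 17.9, 17.6 and 45.7 CPM in the control libraries and at 10.1, 14.0, 7.49 and 13.1 CPM in the EPS libraries, and its limma difference of -1.09 was -0.65 without control replicate 4.

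Of 8 targets of TGF-beta and activin, 1 was called in limma, or 12.5% against 1.41% of all genes. Ctgf, the matricellular protein CCN2, was at 105, 106 and 191 CPM in the control libraries and at 56.8, 48.8, 44.9 and 52.4 CPM in EPS libraries 1 to 4. Each EPS library lay below each control library. Its mean of 134 ± 49.5 CPM (SD, n = 3) fell to 50.7 ± 5.06 CPM (SD, n = 4), a log2 change of -1.33 (SE 0.22, limma adjusted p 0.071), and it was called in all 7 leave-one-out fits, at -1.04 without control replicate 4. Fn1, fibronectin, had the highest mean CPM, with 10466 ± 2584 CPM and 8792 ± 2233 CPM (log2 -0.26, SE 0.93).

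Finally, the genes most like the extremes among the 10 were sought by the root mean square difference in log2(CPM + 1), each gene centred on its control mean, over the 7 libraries. Nearest to Gdf6 was Sox8, a transcription factor of muscle progenitors, at a distance of 0.249. It was at 19.3, 24.2 and 32.0 CPM in the control libraries and 4.70, 7.36, 6.58 and 4.67 CPM in the EPS libraries. Tac4, a tachykinin precursor (0.352), and Mybpc1, slow myosin-binding protein C (0.361), came next. Nearest to Gdf15 were Cbr3, a carbonyl reductase (0.224), Hspb1, a small heat shock protein (0.230), and Mmd (0.233). Hspb1 was at 118, 149 and 114 CPM in the control libraries and 206, 496, 281 and 678 CPM in the EPS libraries, and like Gdf15 it was highest in EPS replicate 4 and next highest in EPS replicate 2. Likeness here describes the pattern only, on a scale with 1 CPM added that makes changes of low genes look smaller. The mean of Sox8 went from 25.2 to 5.83 CPM with EPS, and that of Gdf6 from 3.85 to 0.119 CPM.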

How the data were processed

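RNA-seq was available for 3 control and 4 EPS libraries, grouped by their labels. The authors selected poly(A) RNA, used a directional kit, mapped reads of 100 bp to GRCm38 with STAR 2.5.4b and deposited CPM, with 1 value per gene and library. The read counter, gene annotation and strand setting are not given in the sources used here. All values were whole multiples of 1 read (within 0.01), so whole reads were recovered.

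From the CPM, log2(CPM + 1) was fitted with limma 3.58.1 (mean-variance trend, R 4.3.3), EPS against control, with no covariate and two-sided P values. The recovered reads were tested with edgeR 4.0.16 (quasi-likelihood) and DESeq2 1.42.0 for comparison. The limma fit was also repeated with 0.1 or 0.5 CPM added in place of 1, after median-of-ratios scaling, after quantile normalization, over genes averaging at least 1 CPM, with the replicate number as a block, and with each library left out. The tests were tried on simulated reads. Gene positions and exon lengths are those of GENCODE M21, and promoter windows those of RefSeq.

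The genes, lists and tests were chosen with earlier results of these data known. Besides the 10 genes, the text names pathway genes with an unadjusted P under 0.01 (except 1, not reported here), the gene of each role with the highest mean CPM (not divided by length), genes of the stress and cell type lists past both thresholds, and the 3 genes nearest to Gdf6 and Gdf15. The markers of unfused myoblasts are named as a whole list. All other genes named were chosen after their values were seen. The authors' qRT-PCR, ELISA, animal and public exercise data were not analysed here.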

Additional observations from a re-analysis of the deposited data

How the results depend on the processing

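Over all genes, 269 were called in limma on the deposited scale. The number was 601 with a pseudocount of 0.1 CPM, 629 in edgeR with TMM, 631 in edgeR without TMM and 585 in DESeq2, and 209 to 325 with single libraries left out. Genes higher in EPS made up 68.8% of the calls, but 51.6% after quantile normalization, 52.8% after median-of-ratios scaling, 52.3% in edgeR with TMM and 54.2% in DESeq2.

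Of the 10 genes, 3 were called, and 1 to 3 with single libraries left out, with 1 without control replicate 1 or control replicate 4. Of the other pathway genes 2 were called, 4 with a pseudocount of 0.1 CPM, 5 in edgeR with or without TMM, 7 in DESeq2 and 1 to 5 with single libraries left out, with 1 without control replicate 4 or EPS replicate 4, 4 without EPS replicate 2 and 5 without EPS replicate 1. No sources tie libraries of the same number together, and their deviations from the group means had correlations of 0.25, -0.45 and 0.068 over genes for replicates 1, 3 and 4. With the replicate number as a block, which rests on 3 pairs, 161 of all genes and 1 of the 10 genes, Gdf6, were called.

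Of the 10 genes and the pathway genes named by rule, 7 turned direction under some alternative. Gdf5 was at -0.016 after quantile normalization, -0.0059 after median-of-ratios scaling, -0.21 with the block and -0.31 to 0.45 with libraries left out. After median-of-ratios scaling, in edgeR with TMM and in DESeq2, Bmpr1a was at -0.020, -0.018 and -0.031, Hfe2 at -0.035, -0.0077 and -0.018, Pcolce at -0.026, -0.012 and -0.025, and Ski at -0.10, -0.092 and -0.11. Hfe2 was at -0.027 with the block, Ski at -0.018 and Fn1 at 0.19 after quantile normalization. With libraries left out, Bmpr1a ranged from -0.037 to 0.21, Hfe2 from -0.027 to 0.23, Ski from -0.058 to 0.11 and Runx2 from -0.12 to 0.37. The cause was not tested. Of the single-gene values under alternatives, 346 kept direction and side of the call, 28 reversed, 15 lost the call and 6 gained it. Depth limits Mstn and the EPS level of Gdf6, both at a few reads.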
